A study of Mus musculus with 20 samples.

Results

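The 2 arrays of mouse RNA labelled as all splenocytes of the host were compared with the 4 arrays labelled as thymus grafts at 10 weeks, which makes 6 of the 20 arrays in the series. Members were taken from the sample labels alone. The host arrays, numbered 4 and 5, carried the strain WB. The grafts, numbered 1 to 4 here only to name them, were labelled as autonomous thymus with the background F1(WB x B6/Ly5.1). The 7 arrays of T cell acute lymphoblastic leukaemia (T-ALL) used for reference had that same F1 background. The 2 thymus and 2 spleen arrays labelled wild type came from C57BL/6, and 3 further T-ALL arrays were marked Rag-. The genotype of the hosts, the site of grafting, the age of the mice and whether any sample was sorted or pooled were not given for single arrays in the sources used here. Each value was the log2 intensity of an Illumina bead array probe, quantile normalized by the authors, so that a difference of 1 is a 2-fold change. A gene was called changed at an adjusted p below 0.05 in limma, over 12712 genes tested, and a level above 7.12 counted as above background.

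In the thymus, immature cells that make only the T cell receptor beta chain signal through the pre-T cell receptor and Notch, then divide and become double-positive cells that carry both CD4 and CD8. Double-positive thymocytes express the recombinase pair Rag1 and Rag2 and rearrange the alpha chain locus. Contact with epithelium, which displays self peptides on MHC molecules, then induces genes such as Egr1 and Cd69 in cells that are selected. The adult spleen normally holds B cells, mature T cells, red pulp macrophages and blood cells, and is no site of double-positive thymocytes.

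Chip, strain and label ran together in this comparison. Grafts 1 and 2 shared a chip with T-ALL arrays, grafts 3 and 4 shared a further chip with T-ALL arrays, and both host arrays were on the chip of the 4 wild-type arrays, so label, strain and chip cannot be told apart. The RNA was extracted by the same stated method throughout. The 2 host arrays correlated at r = 0.993 across the 12712 genes, with 10 genes apart by at least 2-fold. Grafts 1 and 4, from different chips, correlated at 0.994, also with 10 such genes, whereas 1607 genes separated grafts 3 and 4 by that much. Whether grafts 1 and 4 came from separate mice was not given, and the leukaemia comparison below is given also with these 2 counted as 1 array. The thymocyte transcripts described next go against the label of a whole spleen. Wild-type spleen array 3 also held several of them at high levels. Whether the 2 host arrays hold the RNA that their label names was not tested, so that host RNA means here the RNA of the arrays so labelled. Because RNA of bulk samples was measured, fewer cells of a type and less RNA per cell cannot be told apart in anything that follows.

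The host spleen arrays held double-positive thymocyte transcripts at graft level, while transcripts of spleen cells were present in part. Of the lists for other cells, 13 of 19 macrophage genes and 6 of 13 B cell genes were above background on both host arrays, against 4 and 3 on all 4 grafts. By single array, the macrophage count was 14 and 14 in host RNA and 5, 17, 19 and 4 on grafts 1 to 4. The B cell count was 6 and 6 against 4, 8, 10 and 4, so grafts 2 and 3 held more of both lists than the host arrays. Of all genes tested, 62.4% were above background on all 6 arrays. The macrophage mean of the host arrays (8.12 and 8.08) was below that of every wild-type array, the lowest of which was 9.50. Cd8b1, the beta chain of CD8, read 14.71 and 14.71 on host arrays 4 and 5, against 14.96, 14.94, 14.23 and 14.90 on grafts 1 to 4. Wild-type spleen arrays 1 and 3 read 12.34 and 14.39, so a high level under a spleen label was not confined to the host arrays. Spic, the factor of splenic red pulp macrophages, read 7.20 and 7.06 on the host arrays, either side of the background threshold, where the highest of the other 18 arrays reached 13.20. Klf1, the erythroid master factor, read 7.02 and 7.05 with a highest value elsewhere of 11.16. Both genes were thus at or near background in the host RNA, although each probe detected its gene on other arrays.

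Among B cell transcripts, Cd79b, a signalling chain of the B cell receptor that thymocytes also transcribe, read 9.71 and 9.73 in host RNA and 9.49, 9.63, 8.16 and 9.53 in the grafts. Ighm, the mu heavy chain, read 13.09 and 12.92 against 13.25, 12.84, 14.86 and 13.26. Igkc, the kappa light chain, read 13.55 and 12.91 against 8.76, 13.15, 15.19 and 7.84. The host arrays thus lay within the graft range for both immunoglobulin chains and just above the highest graft for Cd79b. The defining B cell genes Ms4a1, Pax5, Cd22, Fcer2a and Ebf1 read between 6.82 and 7.06 on the host arrays, all under the threshold, but their probes never exceeded 7.94 on any other array either, the wild-type spleens included. Of the spleen stroma list, Tlx1 (6.89 and 7.08) and Cxcl13 (6.78 and 6.91) were under the threshold in host RNA. Fcrla, a B cell Fc receptor-like protein, read 7.89 and 7.61 in host RNA, above the highest graft at 7.45. The part of other cells in the values below was not tested.

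**Figure D1:**
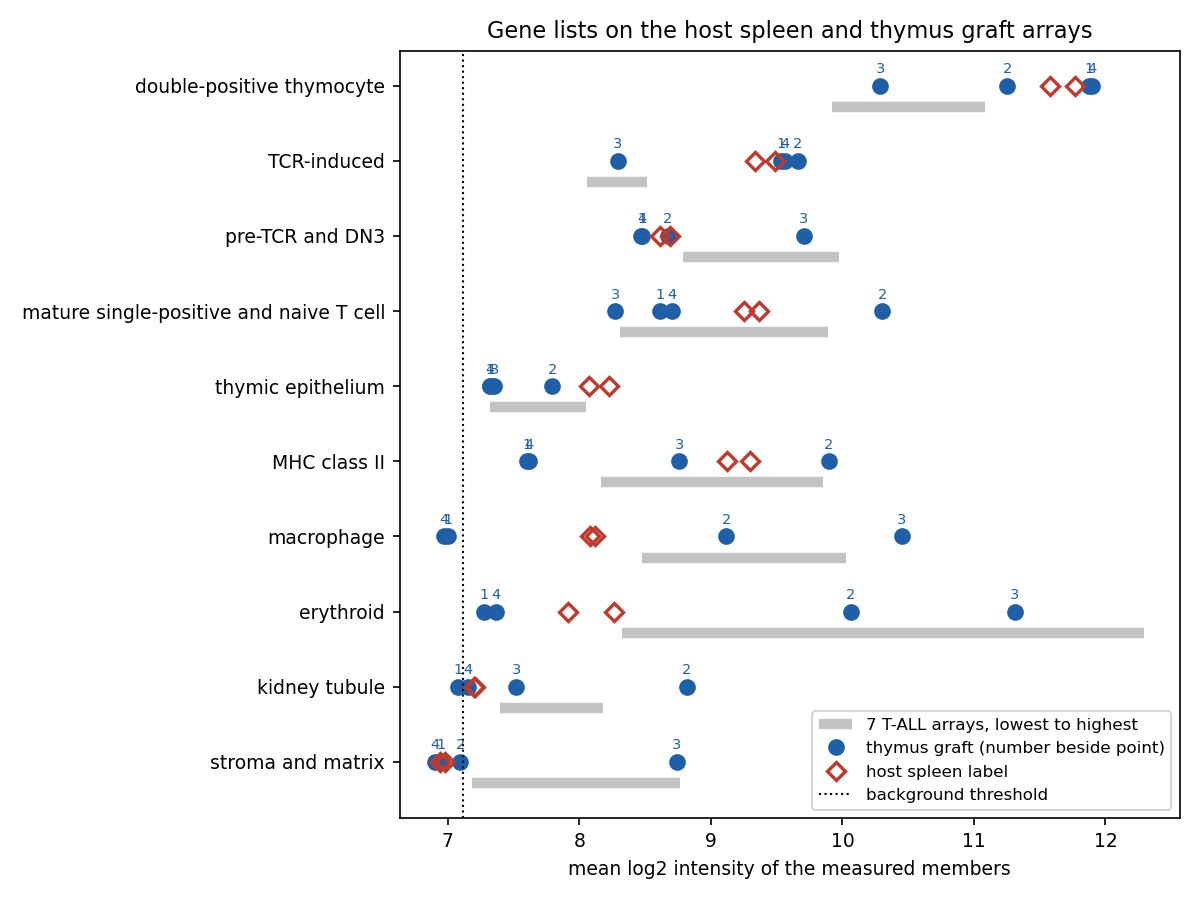
Mean log2 intensity of the measured members of 10 gene lists on each host spleen (diamond) and thymus graft (circle, numbered) array, with a bar from the lowest to the highest of the 7 T-ALL arrays and a dotted line at the background threshold of 7.12. The host arrays sit at 11.77 and 11.58 for the double-positive list, beside grafts 1, 2 and 4, and above all 4 grafts for the thymic epithelium list, while graft 3 sits at 10.29 for the double-positive list.

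Of the 18 genes listed for double-positive thymocytes, 14 were measured. Their mean level was 11.77 and 11.58 on the host arrays, 11.87, 11.25, 10.29 and 11.90 on grafts 1 to 4, and between 9.92 and 11.08 on the 7 T-ALL arrays. On the 4 wild-type arrays it lay between 8.59 and 10.76. The host arrays were therefore inside the graft range, above every T-ALL array, and well above graft 3. The wild-type thymus arrays gave no clear double-positive reference. Thymus array 1 read 6.83 for Dntt and 7.02 for Cd4, both under the threshold. For Cd8b1, thymus arrays 1 and 3 read 10.25 and 13.13, and wild-type spleen arrays 1 and 3 read 12.34 and 14.39. For Arpp21, thymus array 3 (12.96) was slightly above spleen array 3 (12.87). No member was called between host and graft, against 0.323% of all genes tested, and the median difference of the 14 was 0.18, where that of all genes was -0.05. The difference of the list means was 0.35, and it was -0.000833 when graft 3 was left out.

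Of the 10 measured genes of V(D)J recombination and joining, none was called and the median difference was -0.01. Rag1, which cuts antigen receptor loci together with Rag2, read 13.63 and 13.47 in host RNA and 12.44, 12.24, 10.62 and 12.58 in the grafts. Both host values were above all 4 grafts, by a mean of 1.58 (SE 0.89, 95% interval -0.30 to 3.46), which did not pass the test (limma, adjusted p = 0.75). Rag2 read 8.67 and 8.53 against 9.49, 8.87, 7.81 and 9.68, so the host arrays fell inside the graft range. Dntt, the polymerase that adds untemplated bases at joints, read 12.49 and 12.13 against 12.15, 11.21, 9.74 and 12.44.

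Themis, an adaptor required for positive selection, read 10.98 and 10.61 in host RNA against 9.92, 9.28, 8.82 and 9.61. The groups did not overlap, the mean difference was 1.39 (SE 0.53, 95% interval 0.27 to 2.50), and the gene was not called (limma, adjusted p = 0.45). Cd4 read 9.66 and 9.40 against 10.16, 9.37, 7.94 and 10.24. For Cd4 the host arrays lay among grafts 1, 2 and 4, and graft 3 stood low. Rasgrp1, an activator of Ras downstream of the T cell receptor, read 13.57 and 13.48 against 14.36, 13.51, 12.23 and 14.05, with a 95% interval of the difference from -1.17 to 1.14.

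Satb1, a chromatin organiser of thymocytes, read 14.75 and 14.66 in host RNA and 14.90, 14.69, 13.78 and 14.80 in the grafts, and Arpp21 read 13.57 and 13.32 against 13.82, 12.29, 12.51 and 13.69. Neither probe separated the labels. At the probe used, the remaining members Aqp11, Plxnd1, Bcl2l1, Cd1d1 and Cd24a differed by between -0.10 and 0.35. Cd24a was under the threshold in every graft, but its probe never exceeded 7.52 on any array, so its reading tells little about the gene. Probes of Satb1 did not agree, with differences from 0.09 to 2.77. Those of Aqp11 ran from 0.285 to 1.09 and those of Bcl2l1 from -0.10 to 0.42. Of the 14 members, only Cd1d1 was above background on all 6 arrays with a 95% interval wholly within 2-fold either way (-0.85 to 0.89), and Cd24a, near background, had an interval from -0.10 to 0.47. The intervals leave room for sizeable differences in the other members.

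**Figure D2:**
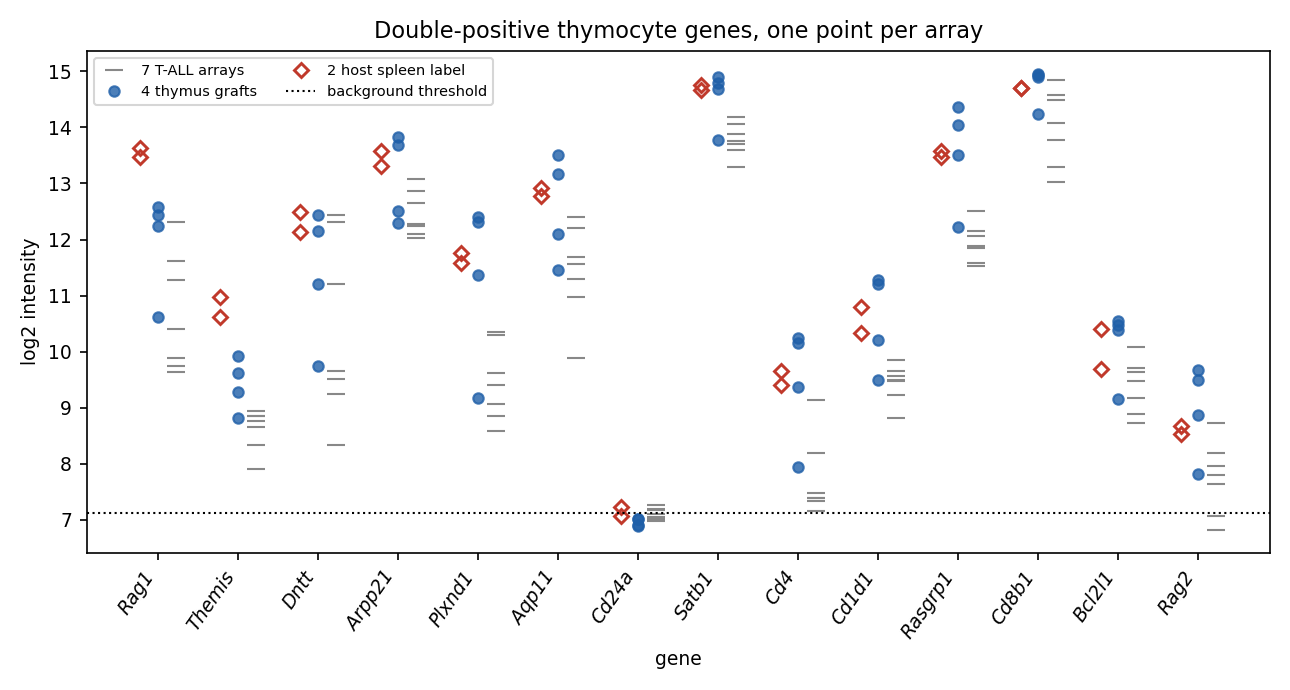
Log2 intensity of the 14 measured double-positive thymocyte genes, 1 point per array, for the 2 host spleen arrays (diamonds), the 4 grafts (circles) and the 7 T-ALL arrays (dashes), ordered by the host minus graft difference. Rag1 and Themis lie above all 4 grafts on both host arrays, and for Rag2, Cd4 and Rasgrp1 the host points fall inside the graft range.

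The mean of genes induced by T cell receptor signals was inside the graft range as well. Over the 13 measured genes of that list, the mean was 9.49 and 9.33 on the host arrays and 9.53, 9.66, 8.29 and 9.56 on the grafts, with T-ALL between 8.06 and 8.51. Graft 3 was thus at the leukaemia level and the other 5 arrays were about 1 above it. Egr2, a transcription factor induced during selection, read 10.17 and 9.95 in host RNA and 9.88, 10.13, 7.36 and 9.85 in the grafts. Cd69, an early activation antigen, read 11.45 and 11.03 against 11.70, 11.46, 7.64 and 11.72. Both genes therefore showed the same 5 arrays high and graft 3 low. The host minus graft median of the list was 0.17, with 0 of 13 members called.

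Some genes of the Notch and pre-T cell receptor list formed the opposite picture. Dtx1, a Notch target, read 7.90 and 8.38 in host RNA and 7.51, 9.26, 12.32 and 7.26 in the grafts, and Hes1, also a Notch target, read 7.51 and 7.56 against 7.03, 7.25, 9.24 and 7.09. The host arrays and grafts 1, 2 and 4 were low for both, and graft 3 reached the T-ALL range (9.93 to 12.72 for Dtx1, 8.36 to 10.22 for Hes1). Ptcra, the pre-T cell receptor alpha chain, read 8.72 and 9.06 against 8.24, 8.32, 9.49 and 8.52, and the host arrays lay inside the graft range. Cd27, a bright member of the list, went the other way, with graft 3 lowest. It read 13.79 and 13.74 in host RNA and 14.65, 14.08, 13.00 and 14.63 in the grafts. Over the 14 measured genes of the list, the host arrays averaged 8.62 and 8.69 and the grafts 8.48, 8.67, 9.70 and 8.47.

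To describe what the 2 labels had in common, the mean of the host and graft group means was set against the 7 T-ALL arrays. Of 12712 genes, 1279 were called (10.1%), 709 higher (5.58%) and 570 lower (4.48%) in host and graft. This count was 696 with grafts 1 and 4 averaged as 1 array, and 94 without host array 4, 327 without host array 5, 642 without graft 1, 1997 without graft 3 and 716 without graft 4. It was 760 without T-ALL array 6. The genes that follow were also the ones whose 6 host and graft arrays did not overlap the 7 T-ALL arrays, which held for 85 of the genes called higher (0.669%) and 98 called lower (0.771%). Without the call, 0.787% of all genes lay above T-ALL on all 6 arrays and 0.968% below.

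Fgf13, an intracellular member of the fibroblast growth factor family, read 10.25 and 10.16 in host RNA, 10.71, 10.62, 10.67 and 10.64 in the grafts, and 6.88 to 9.01 with a median of 7.10 in T-ALL. The 6 arrays lay close together and above all 14 remaining arrays of the series. The difference from T-ALL was 3.03 (SE 0.28, limma, adjusted p = 6.75e-05). Smoc1, a secreted calcium-binding protein, read 9.93 and 10.24 in host RNA and 10.79, 9.30, 8.81 and 10.20 in the grafts, against a highest value of 8.04 in T-ALL. Hmgn3, a nucleosome-binding protein, read 9.78 and 9.83 against 9.96, 9.52, 8.40 and 10.25, above the 7.79 that was the highest in T-ALL. Smoc1 and Hmgn3 rose by 2.62 and 2.40 relative to T-ALL.

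Samd9l, an interferon-inducible gene, Cd28, the costimulatory receptor of T cells, and Cytip, a regulator of adhesion, followed at 2.16, 1.75 and 1.73 above T-ALL. The host arrays read 10.99 and 10.76 for Samd9l, above the graft range of 9.59 to 10.13, but inside the graft ranges for Cd28 and Cytip. Only 10 genes lay above all 14 arrays outside the 2 labels on each of the 6 arrays (0.0787% of those tested). Besides Fgf13 and Smoc1 they were Map3k1, Parp6, Nr1d2, Sptan1, Ttc5, Nras, Nsd3 and Synrg, and they are named because the group is small. Some margins were narrow, as between the lowest of the 6 and the highest other array for Nr1d2 (7.77 and 7.76) and Synrg (9.88 and 9.83). Map3k1, a kinase that feeds the JNK pathway, read 12.94 and 12.54 in host RNA and 11.65 to 12.32 in the grafts, with the next array at 11.62.

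Among the genes furthest below T-ALL was a matrix gene. Fbln1, the matrix protein fibulin-1, read 8.01 and 8.21 in host RNA and 8.12, 8.18, 10.89 and 7.81 in the grafts, against 11.33 to 12.21 in T-ALL. Graft 3 alone approached the T-ALL level. The difference was -3.45 (SE 0.59, limma, adjusted p = 0.00416). Aif1l, an actin-bundling protein, read 6.95 and 6.81 in host RNA and 6.86 to 7.39 in the grafts, at or near background on all 6 arrays, against 7.93 to 11.23 in T-ALL. Only 9 genes lay below all 14 arrays outside the 2 labels on each of the 6 arrays (0.0708%), namely Aif1l, Jdp2, Sox13, Pdlim7, Ergic1, Bola1, Apcdd1, Ogfod3 and Gm1604b. For Apcdd1 and Gm1604b the 6 arrays reached at most 7.02 and the lowest other array read 7.05, all under the threshold. For Sox13 these values were 7.13 and 7.22, so these 3 separations were narrow and near background. Jdp2, a repressor that pairs with Jun proteins, read 7.28 and 7.32 against 7.25 to 7.37 in the grafts and 7.97 to 9.62 in T-ALL.

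The symbol a stands for nonagouti, a coat colour gene, which read 7.83 and 7.88 in host RNA, 8.63, 8.77, 9.34 and 9.15 in the grafts and 9.73 to 11.76 in T-ALL. Ppp1r1b, a phosphatase inhibitor, read 7.03 and 7.04 in host RNA, under the threshold, and 7.96, 8.12, 8.12 and 8.13 in the grafts. For both genes the host arrays were below every graft, in each case by about 1 (-1.12 and -1.05), without passing the test between the 2 labels (limma, adjusted p = 0.74 and 0.80), and for Ppp1r1b, dim in host RNA, this gives at least 1.95-fold. Tuba8, a tubulin, and Etv5, an ETS factor, read between 7.15 and 7.32 on all 6 arrays and were 1.71 and 1.59 lower than in T-ALL.

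**Figure D3:**
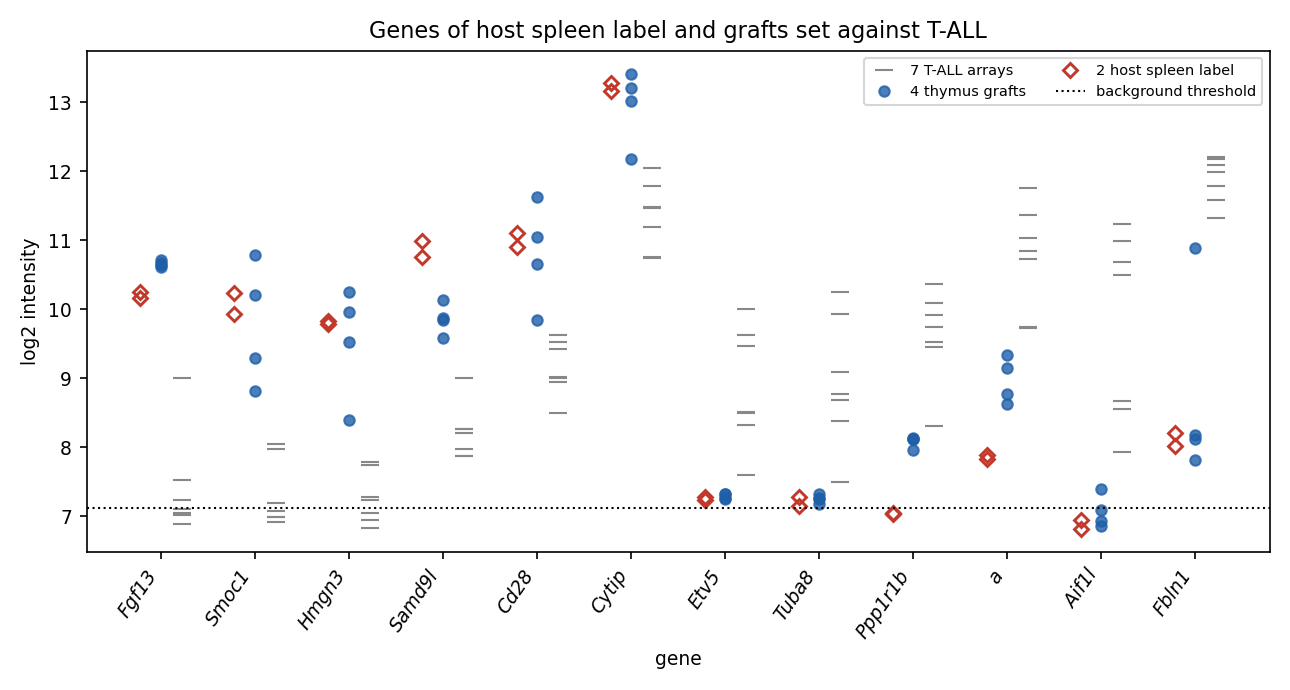
Log2 intensity of the 6 genes furthest above and the 6 furthest below T-ALL in the mean of host spleen label and grafts, with 1 point per array. Host spleen points (diamonds) and graft points (circles) lie apart from the 7 T-ALL arrays (dashes) for every gene shown, and the single graft near 10.89 for Fbln1 is graft 3.

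Within the lists, the same contrast called 6 of the 14 double-positive genes higher than in T-ALL (Rag1, Cd4, Cd1d1, Themis, Plxnd1 and Rasgrp1) and none lower, with a list median of 1.19 against -0.03 for all genes. Over all genes tested, 5.58% were called higher and 4.48% lower. Of the 13 genes induced by T cell receptor signals, 6 were called higher, namely Egr1, Egr2, Egr3, Cd69, Nab2 and Nfkbid. Of the 14 pre-T cell receptor and Notch genes, Dtx1 and Hes1 were called lower, by 2.72 and 1.94, and none was called higher. Of the S phase list, 6 of 21 members were called lower, and of the mitosis list 4 of 16, with none called higher in either. The S phase mean of graft 3 (11.18), and the mitosis means of both host arrays (10.72 and 10.78) and graft 3 (11.14), lay inside the T-ALL ranges of 10.84 to 11.31 and 10.61 to 11.17. These lists had been seen in earlier results of the same arrays, so that their directions are a description.

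To count the genes at a like level under both labels, an interval was used. Of the 12712 genes, 7935 were above background on all 6 arrays (62.4%), and for 4911 of these (38.6% of the genes tested) the 95% interval of host minus graft, from the spread over all 20 arrays, lay wholly within 2-fold either way. Only 195 of the 7935 differed by at least 2-fold in group means. The median size of the difference was 0.23, while the interval reached 0.60 to each side of the median gene.

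A small set of genes was called between host spleen label and grafts. Of 12712 genes, 41 passed (0.323%), 38 higher in host RNA (0.299%) and 3 lower (0.0236%), while 999 had an unadjusted p under 0.05. The 38 rises had both host arrays above all 18 others, including the 4 wild-type arrays of the same chip, a pattern that 4.27% of all genes showed. All 41 were free of overlap between host and graft, where 23.4% of all genes were. The genes were chosen by the same values, so neither pattern is separate support for the calls. The count rests on the spread pooled over all 20 arrays. With the 6 arrays alone, which leave 4 residual degrees of freedom, limma called 0 genes, with 1240 at an unadjusted p under 0.05. Leaving out host array 4 or 5 left 7 and 6 calls, without graft 2, graft 3 or graft 4 there were 27, 26 and 20, and grafts of the first chip alone gave 16 and of the second chip 12. Array weights per group gave 555 and chip as a random block gave 103.

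Rises at the top of the intensity scale were led by a ribosomal protein and a mitochondrial subunit. Rps3a1, a protein of the small ribosomal subunit (chromosome 3), read 12.57 and 12.71 in host RNA and 10.54, 11.27, 11.27 and 10.54 in the grafts. Both host arrays were well above every graft, with a mean rise of 1.74 (SE 0.29, 3.33-fold, limma, adjusted p = 0.012). The probe listed as mt-Atp6, a mitochondrially encoded subunit of ATP synthase, read 14.18 and 13.99 against 12.45, 12.92, 12.47 and 12.27, a rise of 1.56 (SE 0.21, adjusted p = 0.00149). Both genes were also above every other array, where the highest values were 11.92 and 13.19.

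Among the called rises were also pseudogenes of a ribosomal protein, for which no list was used. Rps12-ps24 read 13.79 and 13.73 against 12.21, 12.98, 12.84 and 11.94, and Rps12-ps21 read 13.59 and 13.48 against 12.16, 12.58, 12.47 and 12.08. Host and graft did not overlap for either, and the mean differences were 1.27 and 1.21. The second probe of Rps12-ps24 differed by 0.535. These copies share sequence with their parent gene, so which transcript the probes read is uncertain. Among the 58 measured genes of cytosolic ribosomal proteins, 3 were called higher (Rps3a1, Rpl36a and Rps25), where 0.299% of all genes were, none was called lower, and the median difference was 0.09. The list as a whole averaged 13.07 and 13.13 on the host arrays and 12.81, 13.02, 13.08 and 12.84 on the grafts, so graft 3 lay between the host arrays.

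The other large rises had no shared function in the lists used. Trim59, a ubiquitin ligase of the tripartite motif family, read 10.63 and 10.35 against 9.09, 9.19, 9.54 and 8.87, a rise of 1.32 (SE 0.19, limma, adjusted p = 0.00381), and its second probe differed by 1.05. Srr, the serine racemase, and Wapl, which releases cohesin from chromatin, rose by 1.20 and 1.17. The other probes of Srr differed by 0.77 and 0.10, and those of Wapl by 0.87, 0.69 and -0.18. For Nsd1, a histone methyltransferase, the probe called rose by 1.10 and the other differed by 0.04. Of the 13 called genes with several probes, 3 had every other probe at no less than 50% of the difference. In the rest at least 1 probe fell short of that, in some of them beside another probe that moved alike.

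Low on the scale, Cc1 read 8.64 and 8.70 in host RNA and 7.19 to 7.39 in the grafts, Gm336 read 8.38 and 8.50 against 6.97 to 7.57, and Tmem106b, a lysosomal membrane protein, read 9.07 and 8.73 against 7.66 to 8.08. Each was above all 18 other arrays, and the second probe of Tmem106b differed by 0.30, against 1.05 for the probe used. Siglech, a receptor typical of plasmacytoid dendritic cells, read 8.24 and 8.00 against 7.08, 7.50, 6.92 and 7.12 and was the only called member of the 9 measured dendritic cell genes. Of these 9, 5 had a higher and 4 a lower mean in host RNA, with a median difference of 0.02. The list as a whole thus did not move with Siglech, and 0.299% of all genes were called higher. Nr3c1, the glucocorticoid receptor, read 7.74 and 7.59 against 7.07 to 7.18 in the grafts, and Itga4, the alpha 4 integrin chain, 8.15 and 8.40 against 7.18 to 7.57. Of the 38 rises, 25 had a host mean under 9, and in 8 all 4 grafts were below the threshold, so that the fitted difference is no fold. Ash1l was one of these, at 7.38 and 7.41 in host RNA and 6.67 to 6.72 in the grafts, which gives at least 1.21-fold.

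Only 3 genes were called lower in host RNA. H2-Q6, a nonclassical MHC class I gene of the Qa region on chromosome 17, read 7.71 and 7.67 in host RNA and 9.42, 9.98, 8.85 and 9.57 in the grafts, so that it fell by 1.76 on the log2 scale (limma, SE 0.34, adjusted p = 0.0326). The lowest of the other arrays was 7.46, so that the level in host RNA was not outside the series. Qa region genes differ between mouse strains and resemble each other in sequence, and strain and label cannot be told apart here. Its second probe differed by -0.84. Ufd1, a cofactor of the segregase VCP, and Vps25, a subunit of the ESCRT-II complex, fell by 0.94 and 0.86 (adjusted p = 0.0463 for both), and other probes of Vps25 differed by 0.04 and -0.46. For these 2 genes both host arrays were below all 18 others, as for 3.45% of all genes.

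**Figure D4:**
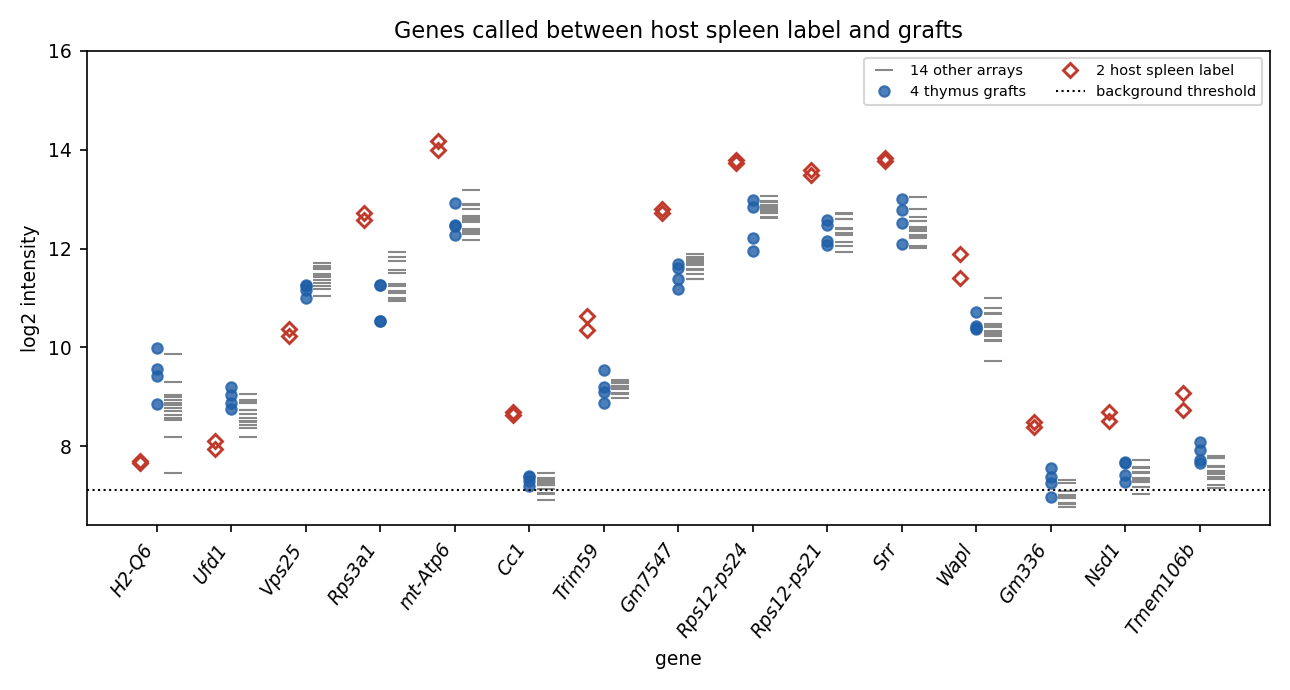
Log2 intensity of the 3 genes called lower and the 12 with the largest rises in host spleen RNA relative to grafts, with 1 point per array. Host spleen points (diamonds) lie apart from the 4 grafts (circles) for every gene shown, and above the 14 other arrays (dashes) for every gene that rose.

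Of the 12 measured genes of thymic epithelium, none was called, 8 had a higher and 4 a lower mean in host RNA, and the median difference was 0.33. They averaged 8.07 and 8.23 on the host arrays, against 7.32, 7.79, 7.35 and 7.32 on the grafts and at most 8.05 on any other array, with the largest differences in Ccl25 and Tbata. Ccl25, the chemokine by which epithelium draws in thymocytes, read 10.99 and 11.33 in host RNA and 8.24, 9.47, 8.07 and 7.90 in the grafts. Both host arrays were above all 18 others, where the highest value was 9.87, and the difference was 2.74 (SE 0.57, 95% interval 1.53 to 3.95, limma, adjusted p = 0.0514). Its second probe differed by 0.55. Tbata, a gene of thymic stroma and testis, read 9.93 and 10.63 against 6.99, 9.36, 6.78 and 6.81, a difference of 2.79 (limma, adjusted p = 0.40), and a T-ALL array reached 10.46.

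Keratins of simple epithelium went with them. Krt8 read 8.68 and 8.96 against 7.32, 8.27, 7.43 and 7.59, and Krt18 read 7.50 and 7.99 against 6.69, 7.13, 6.84 and 6.77. Host and graft did not overlap for either, graft 2 was the highest graft for both, and neither was called (limma, adjusted p = 0.30 and 0.12). In contrast, Psmb11, the thymoproteasome subunit of cortical epithelium, read 7.11 and 7.10 in host RNA, and the basal keratins Krt5 (6.99 and 6.90) and Krt14 (6.97 and 6.98) were also under the threshold. Prss16, the thymus-specific serine protease, read 7.46 and 7.40 against 6.89 to 7.05. Of the 12 members, 5 had both host arrays above all 4 grafts, where 10.2% of all genes did. The members above background numbered 7 and 8 on the host arrays and 4, 8, 4 and 5 on grafts 1 to 4, so this count did not set graft 2 apart.

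FOXN1 is the master factor of thymic epithelium and is known to bind sites with the core GACGC. Foxn1 itself was not among the measured genes, so its level is not described here. The starts of Ccl25 and Tbata are shown because these were the members furthest from the grafts. The sequences are from RefSeq on GRCm38.p6, 250 bases before to 50 after each start, with GACGC or its reverse complement GCGTC in capitals. The core is in 2 places at the upstream start of Ccl25 and in none at its other start or at Tbata, and 27.2% of 32851 such windows hold it on either strand. A match is a description of the letters, not a binding site.
Ccl25, chr8:4324960-4325259, plus strand: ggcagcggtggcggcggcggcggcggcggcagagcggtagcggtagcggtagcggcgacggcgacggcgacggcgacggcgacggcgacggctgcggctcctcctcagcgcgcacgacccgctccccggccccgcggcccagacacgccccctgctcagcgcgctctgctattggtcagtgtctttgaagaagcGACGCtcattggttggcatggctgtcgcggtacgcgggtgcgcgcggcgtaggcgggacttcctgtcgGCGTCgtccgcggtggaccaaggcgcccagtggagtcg
Ccl25, chr8:4349338-4349637, plus strand: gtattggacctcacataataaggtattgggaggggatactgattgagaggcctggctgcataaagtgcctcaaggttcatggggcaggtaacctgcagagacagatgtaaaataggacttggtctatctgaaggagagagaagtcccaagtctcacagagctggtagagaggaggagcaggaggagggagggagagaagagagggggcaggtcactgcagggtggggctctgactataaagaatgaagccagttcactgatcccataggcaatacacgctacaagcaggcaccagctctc
Tbata, chr10:61171714-61172013, plus strand: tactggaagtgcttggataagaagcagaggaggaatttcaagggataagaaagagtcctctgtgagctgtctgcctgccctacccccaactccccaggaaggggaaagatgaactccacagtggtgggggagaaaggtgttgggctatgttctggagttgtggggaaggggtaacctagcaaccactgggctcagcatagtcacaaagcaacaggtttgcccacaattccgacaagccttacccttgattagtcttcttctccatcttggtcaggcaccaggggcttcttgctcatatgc

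MHC class II genes were at low levels on grafts 1 and 4 and higher on graft 2. H2-Aa, an MHC class II alpha chain, read 10.35 and 10.55 in host RNA and 6.84, 9.98, 8.02 and 7.12 in the grafts, and Cd74, the invariant chain, read 11.63 and 12.09 against 7.30, 12.71, 11.45 and 7.22. For H2-Aa both host arrays were above all grafts, and for Cd74 graft 2 was higher still. Over all 11 class II genes the means were 9.12 and 9.29 in host RNA and 7.60, 9.89, 8.76 and 7.61 in the grafts, with 0 called in either direction and a median difference of 0.26.

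Blood and macrophage transcripts showed the same split. Hbb-b1, adult beta globin, read 13.07 and 14.20 in host RNA and 8.95, 14.85, 14.94 and 9.07 in the grafts, so that grafts 1 and 4 were the lowest of the 20 arrays. Alas2, the erythroid enzyme that starts haem synthesis, read 7.16 and 7.95 in host RNA and 6.79, 12.59, 12.52 and 6.79 in the grafts, and Slc4a1, the band 3 anion exchanger of red cells, read 6.68 and 6.91 against 6.83, 12.58, 13.98 and 6.74. The host arrays thus held globin nearer to the level of grafts 2 and 3 and Slc4a1 at the background level of grafts 1 and 4. The 12 erythroid genes averaged 7.91 and 8.26 against 7.27, 10.06, 11.31 and 7.37.

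The 19 macrophage genes averaged 8.12 and 8.08 in host RNA and 7.00, 9.12, 10.45 and 6.97 in the grafts. C1qa, a complement component made by macrophages, read 7.63 and 7.82 against 6.77, 8.90, 9.83 and 6.91. S100a8, a neutrophil granule protein, read 8.86 and 8.18 against 6.91, 14.26, 12.46 and 6.66, and the 15 granulocyte genes averaged 7.19 and 7.05 against 6.85, 10.04, 8.34 and 6.81. The host arrays were nearer to grafts 1 and 4 than to grafts 2 and 3 for C1qa, S100a8 and the granulocyte mean, while for the macrophage mean they lay about midway between graft 2 and grafts 1 and 4. None of the erythroid, macrophage or granulocyte genes was called.

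Graft 2 carried kidney transcripts that the host arrays lacked. Slc34a1, the phosphate transporter of the proximal tubule, read 11.30 on graft 2 and 6.67 to 6.82 on the other 5 arrays, and Miox, a kidney oxygenase, read 11.03 on graft 2 and 6.76 to 6.96 elsewhere. Lrp2, the receptor megalin, and Umod, uromodulin, read 8.93 and 8.07 on graft 2 and were under the threshold on the other 5. Graft 3 in turn carried stroma, where Sparc, a matrix protein, read 10.41 and was 6.54 to 6.89 elsewhere, and Bgn, a matrix proteoglycan, read 11.61 and was 7.09 to 7.58 elsewhere. Host RNA was under the threshold for Sparc and at 7.21 and 7.40 for Bgn.

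Transcripts of mature T cells lay between grafts. Ccr7, the homing receptor of naive and selected T cells, read 8.72 and 8.48 in host RNA and 7.34, 9.55, 7.01 and 7.46 in the grafts, and Nkg7, a granule protein of cytotoxic cells, read 9.17 and 9.19 against 7.52, 11.27, 7.79 and 7.71. Graft 2 was above and the other grafts were below the host arrays for both. Over 14 measured genes of mature single-positive and naive T cells the means were 9.37 and 9.25 in host RNA and 8.61, 10.30, 8.27 and 8.70 in the grafts, with a median difference of 0.37 and 0 called.

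Chaperone genes leaned one way and activation genes varied within the grafts. All 14 measured heat shock and chaperone genes had a higher mean in host RNA, 6 of them with both host arrays above all grafts, where 10.2% of all genes were, and none was called. Their median difference was 0.35, and the list means were 9.61 and 9.69 against 8.98, 9.34, 9.75 and 8.87, with graft 3 the highest of the 6 arrays. Hsp90aa1, a cytosolic chaperone, read 10.40 and 10.88 against 8.65, 9.45, 10.31 and 8.51. Fos, an immediate-early gene, read 7.47 and 7.32 in host RNA and 10.23, 8.04, 7.26 and 8.14 in the grafts. Of the 10 genes at least 2-fold apart between grafts 1 and 4, Fos, Junb, Dusp1, Jun, Gadd45g and Ppp1r15a, all stress or immediate-early genes, were higher on graft 1.

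The grafts were then ranked by likeness to the host arrays. Across the 12712 genes, r with the mean of the 2 host arrays was 0.973 for graft 1, 0.970 for graft 4, 0.962 for graft 2 and 0.926 for graft 3. Genes share the array and its normalization and are not independent, so these values describe the arrays without a test. Grafts 1, 4 and 2 held the first 3 places of the 18 other arrays, T-ALL arrays 1, 4 and 5 came next (0.950, 0.943 and 0.940), and graft 3 was in place 7. The lowest value was 0.802, for wild-type thymus array 1.

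The order 1, 4, 2, 3 was kept with each host array alone, with Spearman rho, with all probes, with background-subtracted values, with the mean of probes and with values centred per gene. The same order held over the 12622 genes left without the erythroid, macrophage, granulocyte, platelet, dendritic cell, MHC class II and B cell lists. It was 1, 2, 4, 3 over the genes above background on all 6 arrays, where grafts 2 and 4 had 0.956 and 0.955. Graft 1 came first and graft 3 last in each of these settings, and grafts 2 and 4 changed places in this one. With each gene centred on its mean over the 20 arrays, r was 0.682, 0.643, 0.415 and -0.335 for grafts 1, 4, 2 and 3. Over the 43 genes of the double-positive, T cell receptor complex and T lineage factor lists, the order was also 1, 4, 2, 3. Wild-type spleen array 3 took place 4 of the 18 other arrays there (r = 0.957), above graft 3 (0.921).

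Counts of genes gave the same order. At least 2-fold differences from the host mean were found for 363 genes on graft 1, 427 on graft 4, 589 on graft 2 and 1317 on graft 3, beside 921 on T-ALL array 1. On graft 1 more of these genes were higher in host RNA (210 against 153), and on graft 2 more were lower (228 against 361). By the root mean square difference over each list, graft 1 was nearest to the host arrays in 13 of 32 lists, graft 2 in 10, graft 4 in 7 and graft 3 in 2. This count of lists put graft 2 before graft 4.

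**Figure D5:**
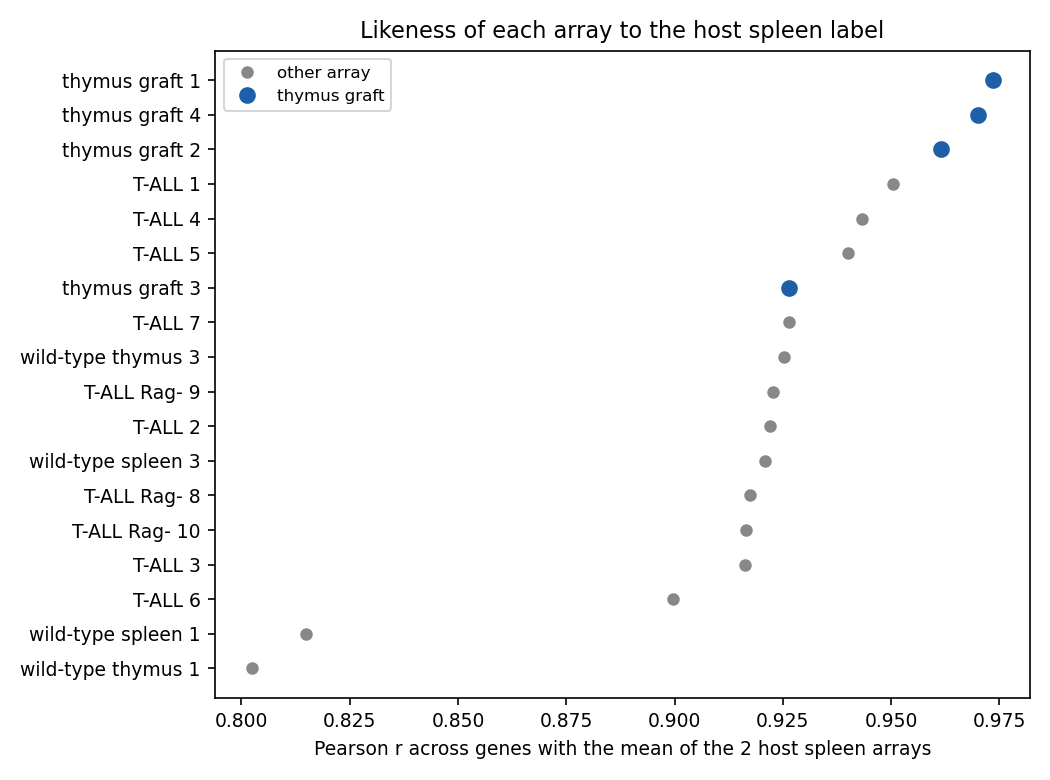
Pearson correlation across 12712 genes of each of the 18 other arrays with the mean of the 2 host spleen arrays, ordered by value, with grafts as large blue points. Grafts 1, 4 and 2 hold the 3 highest places at 0.973, 0.970 and 0.962, and graft 3 stands among the T-ALL arrays at 0.926.

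The 10 genes at least 2-fold apart between the 2 host arrays were Xist, Erdr1, Eif2s3y and Kdm5d of the sex chromosomes, the globins Hbb-b1 and Hba-a1, and Snora65, Eif4a2, Clec2d and Clk1. The last 4 were higher on host array 4, by 1.08 to 1.30. Xist, the RNA that silences an X chromosome in female cells, read 11.40 on host array 4 and 6.67 on host array 5, and the Y-linked gene Eif2s3y read 6.61 and 9.77. The 2 arrays therefore went opposite ways for both, and a value that rests on either gene cannot be averaged over them. Erdr1, a gene near the pseudoautosomal region, read 6.86 and 11.07, and was at least 9.62 on every other array of the series. Hba-a1 read 12.54 and 13.92. On the grafts, Xist read 10.18, 9.44, 6.75 and 9.42 and Eif2s3y read 6.68, 6.65, 7.48 and 6.64, so graft 3 lacked Xist.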

How the data were processed

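The authors deposited log2 intensities of 46089 probes on 20 arrays. Ordered by size, the values of any pair of arrays were within 0.01 of each other, which shows quantile normalization before deposit, and the base of the logarithm was read from the largest value, 15.19 (37381 in linear units, under the 16-bit scanner limit of 65535). Per the labels' protocols, RNAzol B was used for extraction and an Ambion MessageAmp kit for biotin labelling of cRNA. Which software made the values, and with which background correction, is not given in the sources used here. A deposited table of values before normalization had 20 columns that matched no label and was not used.

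Symbols came from the array's annotation (35667 probes with 1 symbol, 0 with several, 10422 with none) and were updated through a RefSeq gene table. The background mode was 6.78 (SD 0.113), and the threshold lay 3 SD above it, at 7.12. Genes needed a probe above it on at least 2 arrays, and the brightest probe stood for the gene, in 4621 of 12712 genes out of several. The model had 6 group means over all 20 arrays, in limma 3.58.1 under R 4.3.3 (14 residual degrees of freedom, intensity trend), with Benjamini-Hochberg adjustment over all genes at 0.05. P values measure only the spread between arrays, which may be partly technical, since separate mice were not stated. The number of arrays limits precision. A fold given as "at least" sets dim arrays to the threshold. The fit was also tested on simulated data. The simulated noise was independent between arrays and held no chip or strain effect, so that test cannot show how these affect the calls.

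Members and lists were chosen with earlier results of these data known. Named genes were the 12 largest called changes in each direction between host and graft, the 6 largest in each direction called against T-ALL without overlap, up to 4 called members of each list or else its 2 brightest, all double-positive genes, and a set of names fixed with the design. Genes outside that rule were chosen after their values were seen, among them Spic, Klf1, Alas2, Slc4a1, the keratins, Tbata, Prss16, Psmb11, the kidney and stroma genes, the B cell genes under the threshold, Ash1l, Nr3c1, Itga4, Ccr7, Nkg7, H2-Aa, Fos, Erdr1, Map3k1 and Jdp2. The 2 grafts 1 and 4 were averaged as an alternative chosen after seeing the data. Other alternatives changed the background, filter, probe choice, centring, moderation, array weights, chip and the arrays fitted. Figures used matplotlib 3.10.9.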

Additional observations from a re-analysis of the deposited data

Results flagged for a closer look

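In a group of 4 arrays, an array was marked where its gap to the nearest other graft exceeded 0.829 of the range. Of 162 list means and genes tested in this way, 33 were marked, 21 of them for graft 3 and 10 for graft 2. Chance marks about 1 in 20 groups that were not chosen for their values. Many of these genes were named after their values were seen, so the counts are not set against that rate. Causes were not tested.

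Among list means, graft 3 stood low for the T cell receptor complex (10.60) and the genes induced by its signals (8.29). It stood high for the pre-T cell receptor genes (9.70), plasma cells (8.51), platelets (8.45), endothelium (8.46) and stroma (8.74). Graft 2 stood high for regulatory and effector T cells (8.92), the interferon response (9.70) and thymic epithelium (7.79).

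Among single genes, graft 3 was low for Bcl2l1 (9.16), Cd69 (7.64), Cd79b (8.16), Cd8b1 (14.23), Egr1 (10.99), Egr2 (7.36) and Nfkbid (9.48). It was high for Bgn (11.61), Cxcl13 (7.79), Eif2s3y (7.48), Fbln1 (10.89), Hes1 (9.24), Kdm5d (8.66) and Sparc (10.41). Graft 2 was high for Lrp2 (8.93), Miox (11.03), Nkg7 (11.27), Slc34a1 (11.30), Tbata (9.36) and Umod (8.07), and low for Apcdd1 (6.71). Graft 1 was high for Jun (8.61) and low for Ppp1r1b (7.96).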

How the results depend on the processing

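The 41 genes called between host and graft became 555 with array weights per group, 103 with chip as a random block, 22 with a stricter filter, 16 with background-subtracted values, 16 and 12 with grafts of the first or second chip alone, and 0 with the 6 arrays alone (limma, 1240 at an unadjusted p under 0.05). Leaving out single arrays gave 6 to 35. The 1279 genes called against T-ALL became 2796 with array weights, 315 with grafts of the second chip alone and 696 with grafts 1 and 4 averaged, and 94 to 1997 without single arrays. The 4911 genes of shared level became 2969 with background-subtracted values and 3242 to 4872 without single arrays. The double-positive list difference was -0.000833 (without graft 3, a change of sign) to 0.537 without single arrays. Over genes above the threshold on all 6 arrays, 2 of the 4 graft ranks were kept. The causes of these moves were not tested. Among the 41 called genes, Zbtb6 and Colec12 kept their direction in 20 of 21 settings with a value. No paired analysis was possible because the host arrays are numbered 4 and 5 in the labels while the grafts carry no such numbers. Chip, strain and label cannot be told apart, and 2 host arrays limit precision.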
